A study of Homo sapiens with 9 samples.

Results

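Mitochondria translate the few messenger RNAs encoded by their own genome on a dedicated ribosome, the mitoribosome, whose protein subunits are all encoded in the nucleus, made in the cytosol and imported. The genes named MRPS carry proteins of the small subunit, which holds the messenger RNA and decodes it, and the genes named MRPL carry proteins of the large subunit, which joins the amino acids. Many of these proteins descend from bacterial ribosomal proteins and others are found only in mitochondria, and the peptides they help to make are core subunits of the respiratory chain and ATP synthase. Members were taken as the protein-coding genes of GENCODE release 44 whose symbol begins with MRPS or MRPL and a digit and holds no hyphen. This gave 78 of the 62700 genes in the tables, 29 MRPS and 49 MRPL. The naming rule used no measured value, but it was chosen with earlier results of these data known. All 78 passed the filter on low counts, among 14436 genes tested.

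RNA was sequenced from HAL-01, a B cell leukemia line that expresses the fusion transcription factor TCF3::HLF. Every culture, controls included, stably expressed Cas9 and GFP. The cells received sgRNA_96 or sgRNA_97, directed at the HLF motif in an enhancer of MEF2C that the fusion protein binds, or the control guide SCR1 with a scrambled sequence, and all were collected on day 13. Each guide had 3 libraries (replicates 1, 3 and 4), the 6 libraries of both targeting guides are called enhancer KO here, and both guides are compared with the same SCR1 libraries. Each library is a pool of cells and the share of edited cells was not analysed here. The sources used here do not say whether replicates were separate cultures, so p-values measure the spread between these samples, which may be technical. In bulk RNA, fewer cells of a kind and less RNA per cell cannot be told apart.

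Libraries held 15212462 to 29777361 counts, the deepest being SCR1 replicate 1. MEF2C, a transcription factor gene and the target of the enhancer, stood at 560, 559 and 536 CPM (counts scaled to a common library size) in the SCR1 libraries and between 495 and 553 CPM in the enhancer KO libraries. Its log2 fold change was -0.12 ± 0.042 (SE) and did not pass the test (adjusted p = 0.062), with the 553 CPM of sgRNA_97 replicate 1 falling inside the range of the controls. All 8 B lineage markers checked were expressed, with a summed level of 4300 to 4510 CPM in SCR1 and 4580 to 4800 CPM in enhancer KO, and 1 of them, DNTT, passed the test. T cell and erythroid markers were at 0 in every library, and the 3 stromal markers summed to at most 0.535 CPM. The 4 myeloid markers summed to 18.7 to 21.5 CPM in SCR1 and 19.4 to 24.0 CPM in enhancer KO, and 1 of them, MPO, passed the test (log2 fold change 1.08, adjusted p = 0.000894). TCF3 and HLF, the genes joined in the fusion, went from 432 ± 19 to 365 ± 32 CPM (SD, log2 fold change -0.24, adjusted p = 0.00986) and from 325 ± 4.8 to 299.5 ± 14 CPM (-0.12, adjusted p = 0.0657). The part of these shifts in the results below was not tested.

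The mitoribosome was expressed as a set in HAL-01 cells, and its members differed in level. On the TPM scale, which corrects for transcript length and so allows genes to be compared, the SCR1 mean ran from 13.5 TPM for MRPL50 to 205 TPM for MRPL51, a 15.2-fold range with a median of 61.7 TPM over the 78 genes. Within the small subunit MRPS17 was lowest, at 16.5 ± 1.4 TPM (SD, n = 3), and MRPS34 highest, at 150 ± 17 TPM. These levels include transcripts not annotated as protein coding, which held 56.0% of the MRPS34 TPM in SCR1. The subunits had similar medians, 55.1 TPM for MRPS and 62.0 TPM for MRPL. MRPL51 stood clear of the next gene, its lowest SCR1 library (199 TPM) lying above the highest of MRPS34 (163 TPM). Of the 77 pairs of neighbours in the order of SCR1 means, 72 had overlapping ranges over the 3 SCR1 libraries, such as MRPS34 (131 to 163 TPM) and MRPL33 (144 to 159 TPM). The other 5 did not overlap, namely MRPL51 over MRPS34, MRPS27 over MRPL42, MRPS22 over MRPL19, MRPL40 over MRPS31 and MRPS17 over MRPL50.

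Transcripts of both subunits were lower in the enhancer KO libraries. Of the 78 genes, 37 fell (adjusted p under 0.05 by the quasi-likelihood test of edgeR, with p-values adjusted by Benjamini-Hochberg across the 14436 genes) and 0 rose, while over all genes 10.6% fell and 10.1% rose. The falls were modest, from 11.0% to 25.8%. The count was 20 without SCR1 replicate 1 (4.97% of all genes) and 23 without SCR1 replicate 4 (6.35%). The 37 comprised 11 of 29 MRPS genes and 26 of 49 MRPL genes. The log2 fold change was below 0 for 72 of the 78, with a median of -0.17 for MRPS and -0.23 for MRPL against 0.0028 over all genes tested. In 30 members every enhancer KO library lay below the lowest SCR1 library, which held for 10.2% of all genes, and in 0 members did every enhancer KO library lie above the highest. No test compared the subunits with each other.

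**Figure D1:**
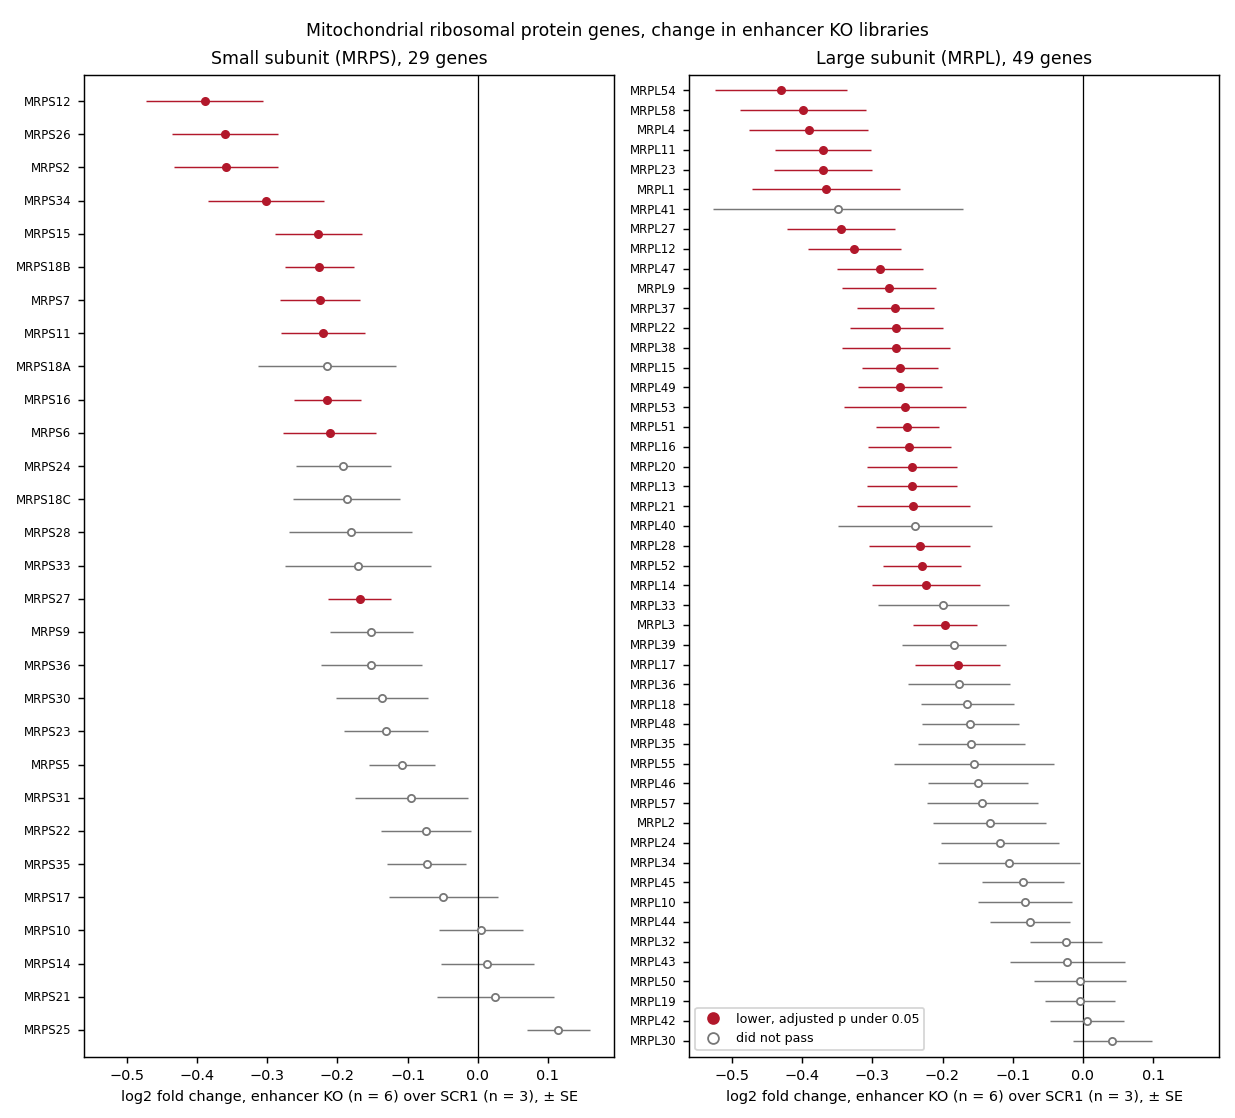
Log2 fold change with its SE for each of the 78 genes, enhancer KO (6 libraries) over SCR1 (3 libraries), with MRPS on the left and MRPL on the right, ordered by size. Filled red points are the 37 genes that passed the test, and open grey points are those that did not. Nearly all points lie to the left of 0, with MRPS25 farthest to the right.

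The summed level shows how far the libraries stood apart. The 29 MRPS genes together held 1590, 1505 and 1608 CPM in SCR1 replicates 1, 3 and 4, and 1369 to 1437 CPM in the enhancer KO libraries. The 49 MRPL genes held 2345, 2209 and 2352 CPM in SCR1 and 1959 to 2100 CPM in enhancer KO. For both subunits the groups did not overlap, and SCR1 replicate 3 lay nearest to the enhancer KO libraries. The same order held in TPM, at 1687 to 1762 TPM in SCR1 and 1461 to 1593 TPM in enhancer KO for MRPS, and at 3401 to 3519 TPM and 2895 to 3128 TPM for MRPL. Members took 0.373% to 0.392% of all counts in SCR1 and 0.333% to 0.352% in enhancer KO.

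**Figure D2:**
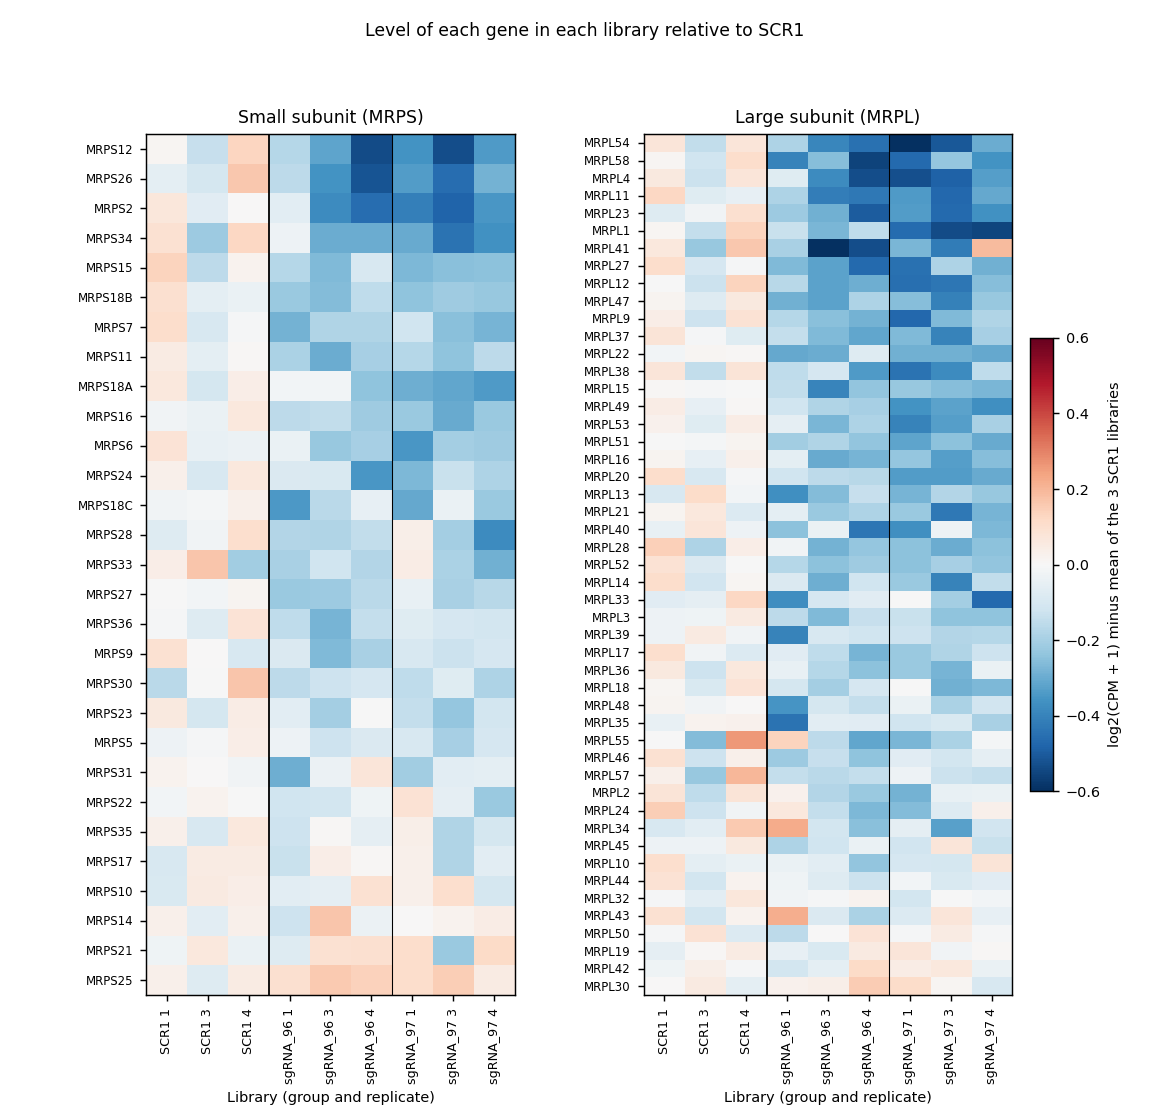
Each row is a gene and each column a library, coloured by log2(CPM + 1) minus the mean of the 3 SCR1 libraries, and values beyond an end of the scale take the end colour. Blue fills most of the 6 enhancer KO columns of both subunits, is palest in sgRNA_96 replicate 1 for many of the top rows, and fades toward the bottom rows, where MRPS25 and MRPL30 are pink in most enhancer KO libraries.

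Among the members with the strongest statistical support were proteins of the factor-binding stalk. MRPL12, the counterpart of bacterial L7/L12 that recruits translational GTPases, stood at 92.5, 84.7 and 102 CPM in SCR1, at 82.6, 74.1 and 75.4 CPM with sgRNA_96 and at 67.5, 68.5 and 77.4 CPM with sgRNA_97. Every enhancer KO library was below the lowest control, and the log2 fold change was -0.33 ± 0.066 (SE, adjusted p = 0.00275). MRPL11, which forms the base of the stalk, stood at 55.5, 48.3 and 49.1 CPM in SCR1, at 44.6, 37.9 and 37.5 CPM with sgRNA_96 and at 40.0, 36.5 and 40.9 CPM with sgRNA_97. The groups again did not overlap, with a log2 fold change of -0.37 ± 0.068 (adjusted p = 0.00125). The most abundant MRPL11 transcript in SCR1 is annotated as subject to nonsense-mediated decay, not as protein coding. It held 47.1% of the MRPL11 TPM in SCR1 and 50.6% in enhancer KO. MRPL10, which anchors the stalk dimers, did not pass, at -0.08 (adjusted p = 0.423).

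Of 5 members listed as neighbours of the peptidyl transferase centre, where the peptide bond forms, 4 fell. MRPL4 stood at 68.7, 60.3 and 69.5 CPM in SCR1, at 62.7, 50.7 and 45.4 CPM with sgRNA_96 and at 45.5, 46.9 and 52.4 CPM with sgRNA_97. Its sgRNA_96 replicate 1 lay within the control range, the other 5 enhancer KO libraries lay below it, and the log2 fold change was -0.39 (adjusted p = 0.00434). MRPL27, MRPL16 and MRPL3 fell by 0.34, 0.25 and 0.20 on the log2 scale, and MRPL2, at -0.13, did not pass (adjusted p = 0.268). Of 5 members listed at the rim of the tunnel through which the new peptide leaves, 4 fell as well. MRPL23 stood at 38.1, 39.8 and 43.2 CPM in SCR1, at 34.5, 32.9 and 28.3 CPM with sgRNA_96 and at 31.8, 28.9 and 31.2 CPM with sgRNA_97, all 6 below the controls (log2 fold change -0.37, adjusted p = 0.00154). MRPL47, MRPL22 and MRPL17 fell by 0.29, 0.27 and 0.18, and MRPL24, at -0.12, did not pass (adjusted p = 0.355). In the whole large subunit 26 of 49 genes fell (53.1%), and 10.6% of all genes. These functional groups need not hold every protein at their sites. They were drawn up after the values had been seen and are given as description, and no test compared them with other members.

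Proteins that the bacterial ribosome lacks fell too. MRPL51, the member with the highest TPM and the smallest adjusted p, stood at 97.8, 96.9 and 98.9 CPM in SCR1, at 84.7, 86.1 and 82.8 CPM with sgRNA_96 and at 78.3, 82.3 and 79.2 CPM with sgRNA_97. The groups were well separated relative to their spread, with a log2 fold change of -0.25 ± 0.045 (adjusted p = 0.00106). MRPL51 shares exon sequence with NCAPD2 on the opposite strand, which stood at 428 CPM in SCR1 and 374 CPM in enhancer KO, and whether counting used strand was not given in the sources used here. MRPL37 stood at 128, 121 and 116 CPM in SCR1 and between 91.8 and 110 CPM in enhancer KO, below every control (log2 fold change -0.27, adjusted p = 0.0029). MRPL54 fell furthest, from 23.2, 19.8 and 23.3 CPM in SCR1 to 19.2, 16.5 and 15.9 CPM with sgRNA_96 and 14.0, 15.2 and 17.8 CPM with sgRNA_97. No enhancer KO library reached the lowest control, and the log2 fold change was -0.43 ± 0.094 (adjusted p = 0.00446). MRPL58, a peptidyl-tRNA hydrolase built into the large subunit that can release stalled peptides, came next, from 19.6, 17.8 and 20.9 CPM in SCR1 to between 12.9 and 16.4 CPM in enhancer KO, also without overlap (log2 fold change -0.40 ± 0.089, adjusted p = 0.00514).

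**Figure D3:**
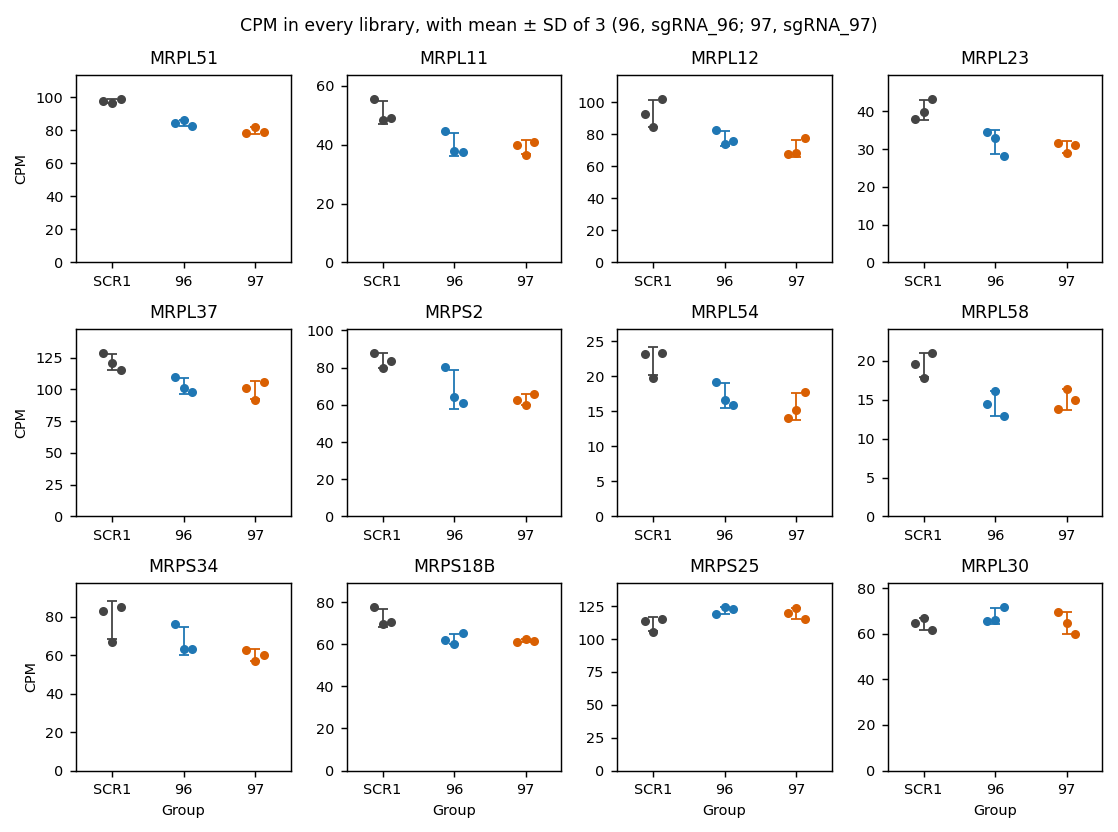
CPM in every library for 12 members, with points for replicates 1, 3 and 4 from left to right in each group, bars for the mean ± SD of 3 libraries, and vertical axes that start at 0. In MRPL51, MRPL11, MRPL23, MRPL12, MRPL37, MRPL54, MRPL58 and MRPS18B the 6 enhancer KO points lie below all 3 SCR1 points, in MRPS2 and MRPS34 1 or more enhancer KO points reach the controls, and MRPS25 and MRPL30 do not fall.

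In the small subunit the largest falls were in MRPS12, MRPS26 and MRPS2. MRPS12, the homologue of bacterial S12 at the decoding site, stood at 38.6, 34.7 and 42.0 CPM in SCR1, at 34.0, 30.6 and 26.1 CPM with sgRNA_96 and at 29.7, 26.2 and 30.1 CPM with sgRNA_97 (log2 fold change -0.39, adjusted p = 0.00374). MRPS2 stood at 87.8, 79.8 and 83.9 CPM in SCR1, at 80.1, 64.2 and 60.8 CPM with sgRNA_96 and at 62.7, 59.7 and 65.6 CPM with sgRNA_97. All enhancer KO libraries were below the controls for MRPS12, whereas for MRPS2 sgRNA_96 replicate 1 lay just above the lowest control (log2 fold change -0.36 ± 0.074, adjusted p = 0.00312). MRPS34, the small subunit gene with the highest TPM, stood at 83.0, 66.8 and 84.8 CPM in SCR1, at 76.0, 63.1 and 63.0 CPM with sgRNA_96 and at 62.8, 57.0 and 60.3 CPM with sgRNA_97. Its controls were themselves spread, replicate 3 lying below the highest enhancer KO library, and the log2 fold change was -0.30 (adjusted p = 0.0167). MRPS34 shares exon sequence with EME2 on the opposite strand, which went from 17.3 to 24.2 CPM. The most abundant MRPS34 transcript in SCR1 is annotated as retaining an intron and held 55.9% of the MRPS34 TPM.

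The name of a member does not always give its place. MRPS18A and MRPS30 are named for the small subunit but sit in the large subunit, and MRPS36 is now known as a part of the 2-oxoglutarate dehydrogenase complex. MRPS18A (log2 fold change -0.21, adjusted p = 0.133), MRPS30 (-0.14, adjusted p = 0.154) and MRPS36 (-0.15, adjusted p = 0.148) did not pass. Placed by structure, 26 of 51 large and 11 of 26 small subunit genes fell. Of the 3 paralogues of bacterial S18, MRPS18B fell, from 77.5, 69.4 and 70.4 CPM in SCR1 to between 60.3 and 65.1 CPM in enhancer KO (log2 fold change -0.23 ± 0.050, adjusted p = 0.00465), while MRPS18C was at -0.19 (adjusted p = 0.0944).

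A few members stood apart from the rest. MRPS25 had the highest fold change, from 114, 105 and 115 CPM in SCR1 to between 115 and 124 CPM in enhancer KO (log2 fold change 0.12, adjusted p = 0.0832). In TPM it went the other way, from 49.6 ± 3.2 (SD, n = 3) to 41.9 ± 4.3 (SD, n = 6), so its direction differed between the scales, and it shares exon sequence with NR2C2 on the opposite strand (95.9 CPM in SCR1). MRPL30, a homologue of bacterial L30, stood between 61.8 and 67.0 CPM in SCR1 and between 60.1 and 71.6 CPM in enhancer KO (log2 fold change 0.04, adjusted p = 0.648). MRPS17 (log2 fold change -0.05, adjusted p = 0.703) and MRPL50 (-0.0041, adjusted p = 0.974), which had the lowest TPM of their subunits, overlapped fully between the groups. MRPL41, at -0.35 the largest negative value that did not pass (adjusted p = 0.183), had the lowest counts, between 4.52 and 8.79 CPM. MRPL14, at adjusted p = 0.0498, lay just inside the threshold.

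Each guide on its own also lowered members. With sgRNA_96, 20 of the 78 fell (6 MRPS, 14 MRPL) and 0 rose, against 5.41% of all genes lower and 5.78% higher. With sgRNA_97, 33 fell (10 MRPS, 23 MRPL) and 0 rose, against 7.76% and 7.35%. The count for sgRNA_96 was 2 without SCR1 replicate 1, 2 without SCR1 replicate 4, 3 without its own replicate 3 and 7 without its own replicate 4. That for sgRNA_97 was 13 without SCR1 replicate 1, 14 without SCR1 replicate 4 and 15 without its own replicate 3. The guides share their SCR1 libraries, so these counts do not check each other independently. Shares of all genes in the fits with a library left out are not given here, so the lower counts have no background beside them. Set against each other, sgRNA_97 and sgRNA_96 differed in 0 members by the edgeR test and 0 by DESeq2, where 0.0208% of all genes differed by edgeR, and at an unadjusted p under 0.05 the tools gave 4 and 3 members. The 4 by edgeR, named because of their values, were MRPL1, MRPL49, MRPL20 and MRPS18A. The smallest p (0.00274) belonged to MRPL1, another homologue of a bacterial protein. MRPL1 stood at 21.5, 19.3 and 23.5 CPM in SCR1, at 19.4, 17.5 and 19.1 CPM with sgRNA_96 and at 15.2, 14.4 and 14.3 CPM with sgRNA_97. Its 3 sgRNA_97 libraries were below all others, and after adjustment over all genes the difference between guides did not pass (log2 difference -0.35, adjusted p = 1).

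Other nuclear genes for mitochondrial proteins moved the same way, whereas few cytosolic ribosomal protein genes passed the test. Of 79 tested nuclear subunits of the oxidative phosphorylation complexes, 36 fell and 0 rose, against 10.6% and 10.1% of all genes, with a median log2 fold change of -0.17. Over the 17 alternative settings 18 to 58 fell and 0 rose, while 4.36% to 16.7% of all genes fell, and without SCR1 replicate 1 or SCR1 replicate 4 the count was 19. Among them COX8A of complex IV averaged 129 ± 9.8 CPM (SD) in the 3 SCR1 and 101 ± 5.5 CPM in the 6 enhancer KO libraries (adjusted p = 0.000339), and CYC1 of complex III from 118 ± 7.0 to 91.9 ± 7.0 CPM (adjusted p = 0.000561). Of 83 tested cytosolic ribosomal protein genes 2 fell and 4 rose, shares below those of all genes, with a median of 0.03. Over the alternatives 0 to 4 fell and 1 to 12 rose. Without sgRNA_96 replicate 1, 12 of the 83 rose and 4 fell, where 11.7% of all genes rose and 12.8% fell. In that fit the share that rose was not below that of all genes. Without SCR1 replicate 1 or SCR1 replicate 4, 0 fell and 1 rose, where 4.97% and 6.35% of all genes fell and 5.58% and 6.44% rose. Without SCR1 replicate 3, sgRNA_96 replicate 3 or sgRNA_97 replicate 3, 1 rose, against 8.3%, 8.02% and 8.32% of all genes. Without sgRNA_97 replicate 1, 2 rose, against 9.45%. The smallest adjusted p was that of RPL22L1, a paralogue of RPL22, which rose from 34.3 ± 4.5 to 43.8 ± 4.2 CPM (adjusted p = 0.0102), and RPS26 fell from 167 ± 14 to 142 ± 11 CPM (adjusted p = 0.0148). The summed level of the cytosolic genes overlapped between the groups, at 100283 to 105545 CPM in SCR1 and 100511 to 109424 CPM in enhancer KO.

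Shorter lists cover the other genes that build the mitoribosome, supply it or maintain the DNA its messages come from. Their counts in the main fit are to be read against the 10.6% of all genes that fell. That share was 4.97% without SCR1 replicate 1, 8.73% without SCR1 replicate 3 and 6.35% without SCR1 replicate 4. It was 8.44% without sgRNA_96 replicate 3, 9.41% without sgRNA_96 replicate 4 and 16.7% with the GC trend removed. No test compared them with the members. Of 5 mitoribosomal proteins with other names 3 fell, DAP3 of the small subunit by 0.14 on the log2 scale (adjusted p = 0.0267), AURKAIP1 by 0.32 (adjusted p = 0.0128) and GADD45GIP1 by 0.37 (adjusted p = 0.0319), while PTCD3 was at 0.04 (adjusted p = 0.573). The count was 0 without SCR1 replicate 1, 0 without SCR1 replicate 4 and 1 without sgRNA_96 replicate 3. With counts corrected for average transcript length 0 of the 5 fell and 1, PTCD3, rose, where 5.17% of all genes fell and 5.39% rose. Of 27 assembly and ribosomal RNA modification factors 5 fell, among them MRM1, a methyltransferase of the large ribosomal RNA, from 19.5 ± 1.0 to 14.2 ± 1.4 CPM (adjusted p = 0.00183). Without SCR1 replicate 4 this count was 2, without SCR1 replicate 1, sgRNA_96 replicate 3 or sgRNA_96 replicate 4 it was 3, and with the GC trend removed it was 9. Of 16 translation factors 3 fell, but the median log2 fold change was only -0.03, with 4 of the 16 above 0. TSFM, the elongation factor that recharges TUFM, had the smallest adjusted p of the lists on mitochondrial translation, from 42.8 ± 1.4 to 31.9 ± 1.5 CPM (log2 fold change -0.43 ± 0.058, adjusted p = 0.000108). TUFM itself, the factor that delivers charged transfer RNA, went from 280 ± 23 to 242 ± 11 CPM (adjusted p = 0.00866). Among 17 mitochondrial tRNA synthetases 3 fell, LARS2, MARS2 and TARS2, a count that was 0 without SCR1 replicate 1 and 1 without SCR1 replicate 3 or SCR1 replicate 4. Among 10 genes for mitochondrial DNA transcription and maintenance 3 fell, POLRMT, LONP1 and TFAM. POLRMT, the mitochondrial RNA polymerase, went from 92.4 ± 4.2 to 68.0 ± 8.4 CPM (adjusted p = 0.00111).

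Of the 13 mitochondrially encoded mRNAs, the messages that the mitoribosome translates, 0 fell and 3 rose, where 10.1% of all genes rose, with a median log2 fold change of 0.10. Only 1 rose without SCR1 replicate 1, SCR1 replicate 3 or sgRNA_96 replicate 3, where 5.58%, 8.3% and 8.02% of all genes rose. With the GC trend removed 0 rose, against 9.35% of all genes, and the median was 0.05. MT-CO1, a catalytic subunit of complex IV, went from 13838 ± 245 to 15406 ± 804 CPM (adjusted p = 0.012), and MT-ND5 and MT-ND6 of complex I rose by 0.11 and 0.32 on the log2 scale. Their summed level was uneven within enhancer KO, at 56038 and 58230 CPM in replicate 4 of sgRNA_96 and sgRNA_97 and 60814 to 65168 CPM in the other 4 libraries, against 55973 to 59035 CPM in SCR1, so the groups overlapped.

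**Figure D4:**
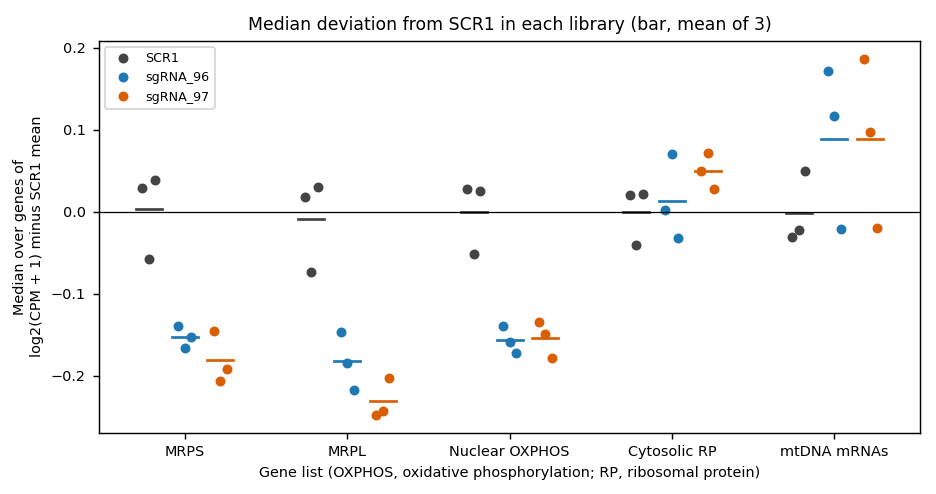
Median over the genes of each list of log2(CPM + 1) minus the SCR1 mean, with 1 point a library and a bar for the mean of 3. The 6 enhancer KO points lie below the 3 SCR1 points for MRPS, MRPL and nuclear oxidative phosphorylation genes, and the groups overlap for cytosolic ribosomal proteins and mitochondrially encoded mRNAs.

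The promoters of the members were read for motifs, which the choice by name did not use. RefSeq (GRCh38.p14) gave a window from 250 bases before to 50 after the start for 69 of the 78 genes, and for genes with several starts the one nearest to that of the most abundant transcript was taken. Motifs were searched on both strands by exact letters. The core of the ETS family site (CCGGAAG), which GABP binds, was in 30 of the 69 (43.5%), against 10.3% of all 35116 windows and 17.5% of windows of tested genes. The YY1 core (AAGATGGCG) was in 13 (18.8%), against 1.75% and 3.53%. The NRF1 core (GCGCATGCG) was in 3 (4.35%, against 1.92% and 3.34%), the E-box (CACGTG) in 5 (7.25%, against 7.26% and 9.34%) and the CCAAT box (CCAAT) in 20 (29%, against 34.6% and 35.3%). The palindromic HLF site (TTACGTAA) was in 0 windows (0.125% of all). A loose MEF2 pattern (CTANNNNTA) was in 12 (17.4%, against 16.4% and 10.8%). Its open letters accept any base, so a match need not have the A and T core of a MEF2 site and can overlap another motif. Of the 33 members with a window that fell, 16 held the ETS core and 4 the YY1 core, against 14 and 9 of the 36 that did not pass. Of 8 tested regulators known to act on such genes, 1 fell and 1 rose, against 10.6% and 10.1% of all genes. GABPB1 rose by 0.18 (adjusted p = 0.0282) and ESRRA fell by 0.28 (adjusted p = 0.0308). NRF1 (-0.16, adjusted p = 0.0821), GABPA (0.09, adjusted p = 0.267), YY1 (0.01, adjusted p = 0.863) and MYC (0.11, adjusted p = 0.178) did not pass. Nor did PPARGC1B (0.09, adjusted p = 0.289) and PPRC1 (-0.02, adjusted p = 0.884). Over the alternatives 0 to 2 of these regulators fell and 0 to 1 rose. With SCR1 replicate 1, SCR1 replicate 4, sgRNA_96 replicate 3 or sgRNA_97 replicate 1 left out 0 passed, and without sgRNA_97 replicate 3 0 rose.

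The 250 bases before the start are shown for the 5 members with the smallest adjusted p that have a window, and for MRPS25, which did not fall, so that the promoters of genes that moved together can be read side by side. Capitals mark the motifs searched, and coordinates are GRCh38.p14 with each sequence 5′ to 3′ on the strand of its gene. MRPL51 (chr12:6493263-6493512, minus strand) held a pair of ETS cores, at -119 to -113 and at -104 to -98 from the start.
MRPL51: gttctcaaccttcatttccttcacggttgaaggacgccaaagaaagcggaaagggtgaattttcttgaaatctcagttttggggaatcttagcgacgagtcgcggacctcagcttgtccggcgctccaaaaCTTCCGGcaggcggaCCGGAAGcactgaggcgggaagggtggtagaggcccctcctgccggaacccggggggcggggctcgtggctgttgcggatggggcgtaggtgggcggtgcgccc
MRPL11 (chr11:66438849-66439098, minus strand) held none of the motifs in this stretch.
MRPL11: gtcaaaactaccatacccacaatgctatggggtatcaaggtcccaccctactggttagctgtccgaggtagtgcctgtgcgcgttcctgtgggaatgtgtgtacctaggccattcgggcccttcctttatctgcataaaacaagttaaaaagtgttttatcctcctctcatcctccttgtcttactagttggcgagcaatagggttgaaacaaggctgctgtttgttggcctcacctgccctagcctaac
MRPL12 (chr17:81703117-81703366, plus strand) held a match to the loose MEF2 pattern at -12 to -4. Its open letters were all G or C there, so it lacks the A and T core of a MEF2 site.
MRPL12: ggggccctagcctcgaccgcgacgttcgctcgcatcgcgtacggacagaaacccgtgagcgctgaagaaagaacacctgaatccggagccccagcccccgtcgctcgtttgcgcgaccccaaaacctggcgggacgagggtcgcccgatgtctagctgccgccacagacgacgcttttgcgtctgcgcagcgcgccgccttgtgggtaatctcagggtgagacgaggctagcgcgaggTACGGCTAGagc
MRPL37 (chr1:54199917-54200166, plus strand) held an E-box at -170 to -165 and CCAAT boxes at -47 to -43 and -38 to -34.
MRPL37: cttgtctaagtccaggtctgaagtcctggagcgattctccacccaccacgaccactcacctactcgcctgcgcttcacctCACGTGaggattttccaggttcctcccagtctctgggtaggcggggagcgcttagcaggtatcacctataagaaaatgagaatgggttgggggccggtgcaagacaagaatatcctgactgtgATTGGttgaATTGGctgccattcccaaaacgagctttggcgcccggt
MRPS2 (chr9:135500432-135500681, plus strand) held none of the motifs.
MRPS2: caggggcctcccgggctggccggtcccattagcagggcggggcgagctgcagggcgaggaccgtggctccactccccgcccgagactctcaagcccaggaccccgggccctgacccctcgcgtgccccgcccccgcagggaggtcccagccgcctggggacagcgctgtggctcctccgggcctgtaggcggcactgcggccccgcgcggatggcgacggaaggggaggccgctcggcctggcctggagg
MRPS25 (chr3:15065316-15065565, minus strand) held none of them either.
MRPS25: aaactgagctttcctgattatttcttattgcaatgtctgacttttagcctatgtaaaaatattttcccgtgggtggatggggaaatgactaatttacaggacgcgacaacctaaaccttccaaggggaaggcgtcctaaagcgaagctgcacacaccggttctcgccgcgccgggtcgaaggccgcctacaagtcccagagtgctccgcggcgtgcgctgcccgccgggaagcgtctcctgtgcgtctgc
A match is only an occurrence of the letters and does not show binding.

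The size of the fall went with the base composition and length of the transcripts. Across the 78 genes the log2 fold change correlated with GC content at a Spearman rho of -0.508 and with transcript length at 0.481, and across all 14436 genes at -0.206 and 0.138. These are descriptions, since the genes share the same 9 libraries. Of the 26 members of lowest GC content (35% to 45.0%) 4 fell, against 6.49% of all genes in that range. Of the middle 26 (45.3% to 53.6%) 16 fell, against 11.4%, and of the 26 of highest GC content (53.8% to 66.7%) 17 fell, against 14.2%. GC content also went with differences between libraries of 1 group. Against the mean of the other replicates of its guide, sgRNA_96 replicate 1 gave a rho with GC of 0.764 over the members, sgRNA_96 replicate 4 gave -0.753, sgRNA_97 replicate 4 gave 0.595 and SCR1 replicate 3 gave -0.607. When a GC trend was removed within each library, 53 members fell, where 16.7% of all genes fell and 9.35% rose. The median was -0.22 over members and -0.028 over all genes, against -0.19 and 0.0028 in the main fit. The rho of the members was then -0.147 with GC and 0.396 with transcript length. The part of GC content in the results was not tested further.

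**Figure D5:**
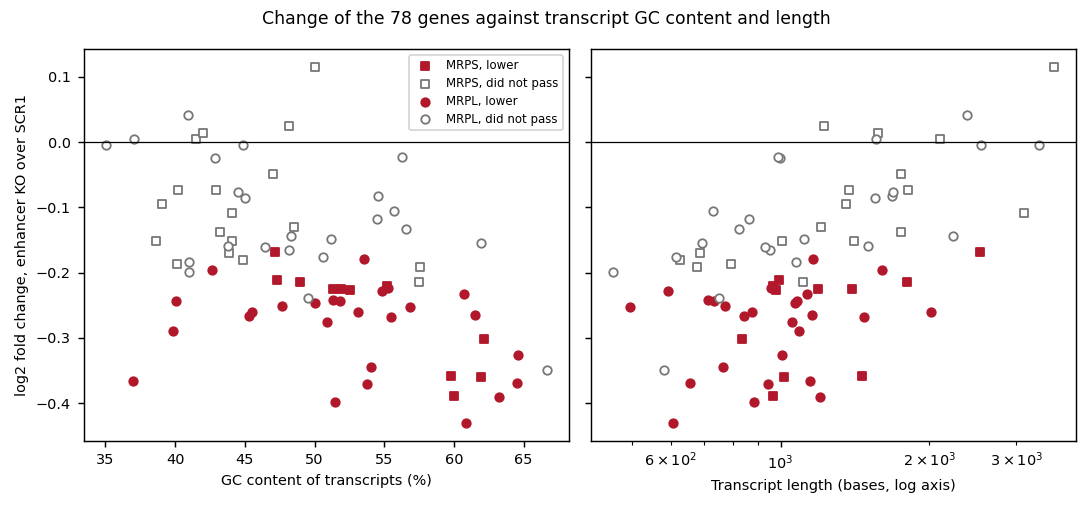
Log2 fold change of enhancer KO over SCR1 for the 78 genes against the GC content of their transcripts in percent (left) and the transcript length in bases on a log axis (right). Filled red symbols passed the test, squares are MRPS and circles MRPL, and the fall is larger toward high GC content and short transcripts.

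How many members passed changed with the libraries and the settings. Over all genes 4.97% were lower without SCR1 replicate 1, where 20 members fell, and 6.35% without SCR1 replicate 4, where 23 fell. With counts corrected for the average transcript length in each library the count was 22 (5.17%). Under these and all other alternatives run, 0 members rose and the median stayed between -0.21 and -0.16 for MRPS and between -0.24 and -0.20 for MRPL. Of the 37, 14 passed in all 17 alternatives, and no member that fell changed direction in any of them. The genes lay on 21 chromosomes and those that fell on 18. Of the 78, 18 share exon sequence with another gene on the same strand and 30 with one on the opposite strand. The 79 pseudogenes named after members took 0.0159% to 0.0433% of the counts of members and pseudogenes together, and none passed the filter.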

How the data were processed

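RNA-seq reads of 9 poly(A)-selected libraries were trimmed, aligned with STAR to GRCh38 and quantified with Salmon 1.10.1 by the authors, who deposited per transcript an estimated count without normalization and a TPM value that sums to 1000000 in each library. The annotation release and the use of strand in counting were not given in the sources used here, and all 252835 transcript identifiers matched GENCODE release 44. Of the deposited estimated counts above 0, 87.6% were not whole, because Salmon divides reads shared between transcripts. No column lacked a sample. Samples were grouped by their titles.

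Estimated counts were summed per gene, rounded, filtered with filterByExpr (minimum count 10) and scaled by TMM in edgeR 4.0.16. CPM are counts over scaled library sizes. Enhancer KO was tested against SCR1 over all 14436 genes with glmQLFit and glmQLFTest at an adjusted p (Benjamini-Hochberg) under 0.05, and the guides in a fit with 3 groups. The SE is the fold change over the root of F. The common biological coefficient of variation was 0.0724. DESeq2 1.42.0, limma 3.58.1 on log2(TPM + 1), other scalings and single libraries left out were alternatives. The test was checked on simulated data. Replicates within a group differed beyond sampling noise (chi-square per gene 4.36 to 8.82). Transcript length and GC content were weighted by TPM.

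The members and lists were chosen with earlier results of these data known. Genes named were the 6 of smallest adjusted p in each direction among those that passed, the 2 largest changes in each direction, the highest and lowest TPM in each subunit, the MRPS18 paralogues, MRPS30 and MRPS36, and in related lists up to 3 genes per direction, and other genes were named after their values were seen.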

Additional observations from a re-analysis of the deposited data

Results flagged for a closer look

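In the 6 enhancer KO libraries, 81 values were checked for a single library far from the other 5 (Dixon's test at the 95% level). Chance alone gives about 1 in 20, or 4.05, and 11 were found. Of these, 6 were in sgRNA_96 replicate 1. It was high for MRPS2 (80.1 CPM, others 59.7 to 65.6), MRPS34 (76.0 CPM, others 57.0 to 63.1), MRPL16 (56.2 CPM, others 46.4 to 49.8), MRPL28 (70.2 CPM, others 57.7 to 60.4) and the summed MRPL level (2100 CPM, others 1959 to 2012), and low for MRPL39 (19.99 CPM, others 23.5 to 24.9). Replicate 1 of sgRNA_97 was high for MRPS27 (169 CPM, others 150 to 156), MRPL57 (30.1 CPM, others 27.4 to 28.0) and MEF2C (553 CPM, others 495 to 510), and low for MRPL32 (47.6 CPM, others 50.7 to 52.3). Replicate 4 of sgRNA_96 was high for MRPL22 (30.4 CPM, others 25.8 to 26.2). Without sgRNA_96 replicate 1 the count of members that fell was 38, where 12.8% of all genes fell.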

How the results depend on the processing

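The direction of the medians and the absence of members that rose held in every alternative, while counts moved. Against 37 members that fell (11 MRPS, 26 MRPL), the average transcript length correction gave 22 (7 and 15), limma on log2(TPM + 1) gave 20 (6 and 14) and the GC trend gave 53 (20 and 33). With the GC trend removed the median was -0.21 for MRPS, and that over all genes was -0.028. Of all genes 5.17%, 4.36% and 16.7% fell in these fits in that order, against 10.6% in the main fit. Leaving out 1 library gave 20 to 38 (5 to 12 MRPS, 15 to 26 MRPL), lowest without SCR1 replicate 1. Of all genes 4.97% fell without SCR1 replicate 1 and 12.8% without sgRNA_96 replicate 1, the lowest and highest shares. For sgRNA_96, with 20 members, the length correction, limma and the GC trend gave 1, 2 and 37, and leaving out a library gave 2 to 24. The lowest were 2 without SCR1 replicate 1, 2 without SCR1 replicate 4, 3 without its replicate 3 and 7 without its replicate 4. For sgRNA_97, with 33, they gave 11 with the length correction, 15 with limma and 13 to 34 with a library left out, with 13 without SCR1 replicate 1, 14 without SCR1 replicate 4 and 15 without its replicate 3. Shares of all genes for each guide in these settings are not given here. For enhancer KO, DESeq2 gave 38 (11.9% of the genes it tested), RLE size factors 36 (10.5%), a length trend 37 (12.9%) and no filter 38 (6.56%). The cause of these shifts was not tested, beyond the smaller number of controls when one is left out.

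Same-numbered libraries did not deviate together (correlations -0.0636 to 0.0511 over 9 pairs, and 1 of 9 libraries closest to its own number). With the replicate block 35 members fell (11 MRPS, 24 MRPL), where 10.5% of all genes fell. The block gave 17 for sgRNA_96 and 34 for sgRNA_97, and shares of all genes for each guide with the block are not given here.

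Log2 fold changes changed sign only in 10 members that did not pass. With the average transcript length correction and limma, MRPS14 gave -0.0701 and -0.0653, MRPS25 -0.25 (adjusted p = 0.0497) and -0.24, MRPL42 -0.19 and -0.18, MRPL43 0.0114 and 0.0107, and MRPL50 0.0029 and 0.0038. With the GC trend, MRPS10 gave -0.063, MRPS14 -0.0521, MRPS21 -0.0158, MRPL30 -0.0312 and MRPL42 -0.11 (adjusted p = 0.0455). With the length trend MRPS10 gave -0.0127 and MRPL42 -0.0030, and with no filter -0.0050 and -0.0045. With 1 library left out, MRPS10 ranged from -0.0436 to 0.0326, MRPS14 from -0.0238 to 0.0399, MRPL19 from -0.0318 to 0.0214, MRPL32 from -0.0527 to 0.0115, MRPL42 from -0.0173 to 0.0272, MRPL43 from -0.074 to 0.0274 and MRPL50 from -0.0443 to 0.0403. Differences between members and lower counts such as those of MRPL41 are limited by depth and by 3 controls.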

Other observations

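The 78 genes had 557 annotated transcripts. In 64 genes 1 transcript held over 50% of the TPM in SCR1, and the share of the leading transcript had a median of 77.4% in SCR1 and 75.3% in enhancer KO. Of these leading transcripts, 71 were annotated as protein coding. Transcripts annotated as retaining an intron, 97 in 41 genes, took 5.40% to 6.20% of member TPM in SCR1 and 6.04% to 6.72% in enhancer KO, so the groups overlapped. Their share was higher in enhancer KO for 30 of the 41 genes and lower for 11, and in 1 gene in each direction the groups did not overlap. Over the 7273 tested genes with such a transcript, 66.4% were higher and 30% lower, and without overlap 4.41% were higher and 0.495% lower, so the counts of members are near the background. These genes, named because of their values, were MRPL38 and MRPL53. MRPL38, a protein of the large subunit found only in mitochondria, had 19.3%, 17.3% and 20.3% of its TPM on such transcripts in SCR1 and 25.05% to 29.3% in enhancer KO. MRPL53 had 5.09% to 6.77% in SCR1 and 0.77% to 4.79% in enhancer KO. Salmon divides shared reads between transcripts, and these shares were not tested.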
